A study of Homo sapiens with 9 samples.

Results

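The actin cytoskeleton and the genes linked to serum response factor were examined as a set of 56 named human genes. The set holds SRF and its coactivators, the actins, the proteins that nucleate, sever, bundle or pull on actin filaments, the linkers of filaments to adhesions and membrane, and a group of small GTPases. A gene was kept where its symbol stood in the tables of all 9 libraries with values above 0 in all 3 groups, which held for 55 of the 56 genes, out of 13825 gene IDs that met the same condition. The exception was CNN1, which encodes a smooth muscle calponin. Its deposited values were 28, 30 and 28 in the SPANX KD 86 libraries, 0 in each of the SPANX KD 87 libraries, and 15, 4 and 6 in the EV libraries, and it was not tested.

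Cells assemble actin monomers into filaments, and the amount of free monomer controls the transcription factor SRF. The coactivators MKL1 and MKL2, also called MRTF-A and MRTF-B, bind free actin monomers and are held back by them. When monomers are used up by filament growth, the coactivators gather in the nucleus and act with SRF at CArG boxes, short AT-rich motifs in the promoters of many actin, adhesion and contractility genes. In melanoma this pathway is known for its link to cell shape, invasion and spread.

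The libraries come from A375, an established human melanoma cell line, and count transcripts from their 3' ends with QuantSeq. The targets were the SPANX genes, whose proteins belong to the cancer-testis antigens and are otherwise found in sperm. The SPANX KD 86 and SPANX KD 87 libraries were made from cells 7 days after knockdown with one of a pair of constructs, and the EV libraries from the EV control, with 3 libraries in each group. The labels give neither what the construct numbers or EV stand for nor how the constructs were delivered, and do not say that the triplicates were separate cultures. The p-values thus rest on a spread between libraries that may be technical.

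Recovered depth was 11.31 to 15.56 M reads in the SPANX KD 86 libraries, 12.67 to 15.27 M in the SPANX KD 87 libraries and 12.32 to 14.55 M in the EV libraries. Of 10 SPANX genes in the files, 2 were above 0, and their summed level was 36.0 to 103 normalised reads with SPANX KD 86 and 24.0 to 40.7 with SPANX KD 87, against 177 to 608 in EV libraries, 7.12-fold and 13.5-fold lower. Each sum gave p = 0.1 in an exact two-sided permutation test, the smallest that 3 libraries against 3 allow. Summed deposited values of the melanoma and melanocyte markers were 13646 to 20127 with SPANX KD 86, 8181 to 12315 with SPANX KD 87 and 3102 to 6517 in EV libraries, with 4 of 8 above 0, while DCT, MLANA, TYR and TYRP1 were listed at 0. SOX10 alone held most of each sum, with 12464 to 19457, 7114 to 11284 and 2278 to 5817 in the same order of groups. MITF had 387 to 804, 697 to 760 and 472 to 678 and PMEL 3 to 18, 20 to 33 and 9 to 19. The 5 fibroblast markers, COL3A1 above 0 with SPANX KD 87 alone, summed to 921 to 1275, 841 to 1054 and 389 to 454 in the same order of groups. Of these, LUM had 274 to 446, 373 to 714 and 32 to 174, and PDGFRB 286 to 554, 125 to 237 and 172 to 246. COL1A1 had 158 to 373, 105 to 218 and 83 to 106, and DCN 31 to 44, 33 to 82 and 5 to 25. Of 4 smooth muscle markers, DES alone was above 0, with 14 to 46, 26 to 34 and 23 to 130, and ACTG2, LMOD1 and MYH11 were listed at 0. Of 3 keratinocyte markers KRT14 alone was above 0, with 50 to 114, 308 to 555 and 219 to 360, and all 3 immune and all 3 endothelial markers were listed at 0. What part these markers have in the results below was not tested, and in bulk RNA fewer cells of a type and less RNA per cell cannot be told apart.

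Libraries differed by transcript length in all 3 groups, with replicates 2 and 3 on opposite sides. Across the 55 genes, the deviation of a library from its group mean was larger for longer transcripts, with a correlation to log2 length of r = 0.65 for SPANX KD 86 replicate 2, 0.74 for SPANX KD 87 replicate 2 and 0.77 for EV replicate 2. Replicate 3 had the opposite trend, with r = -0.45, -0.65 and -0.66 in the same order of groups. Replicate 1 had r = -0.23, -0.14 and -0.46. Deviations are from the group mean, so the trends of a group balance out across its libraries. These correlations are across genes, which share a library, and describe those libraries only. Levels of the long transcripts of FLNA, TLN1 and MYH9 were high in replicate 2 libraries, and those of the short MYL6 were low there. Not every gene followed the trend. LIMA1 (3612 bases) lay below its group mean in each replicate 2 library, and FLNC (9115 bases) was higher in EV replicate 1 than in EV replicate 2. The cause of the trend was not tested. Where removal of the length trend or a fit with the replicate number as a block changed the call of a gene against EV, the adjusted p is given beside it, and the genes whose call between the constructs changed are named together further on.

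**Figure D1:**
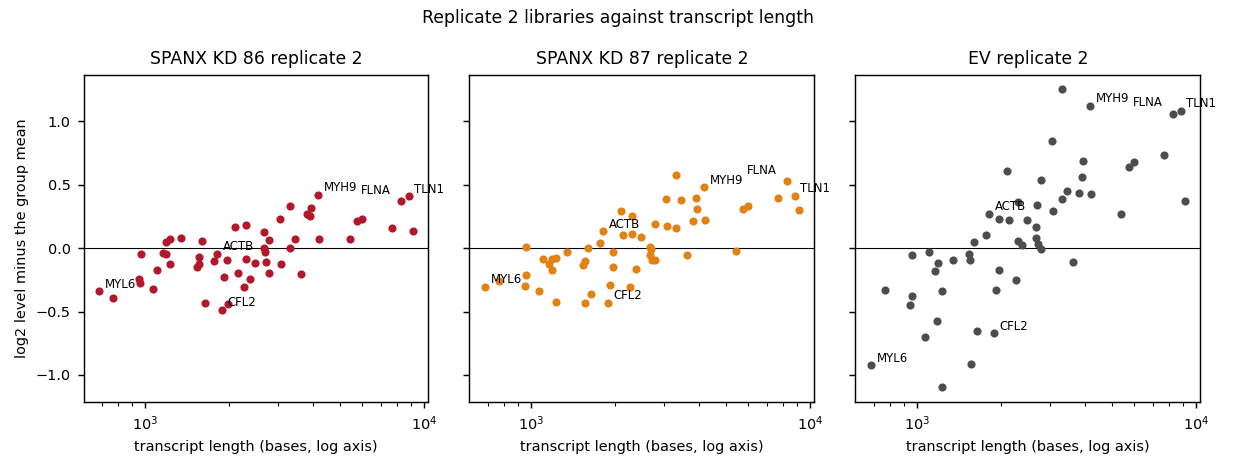
Each point is 1 of the 55 genes. The x axis gives the median annotated transcript length of the gene in bases on a log axis and the y axis the log2 level in a replicate 2 library minus the mean of its group, with SPANX KD 86 on the left, SPANX KD 87 in the middle and EV on the right. Points rise from the lower left to the upper right in each panel, with r = 0.65, 0.74 and 0.77, and EV replicate 2 has the widest spread.

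With SPANX KD 86, 12 of the 55 genes rose and 3 fell. The genes that rose were GSN, RHOB, RHOC, CDC42EP3, TPM1, MKL1, CALD1, PXN, ENAH, MYL9, ZYX and RDX, and those that fell were EZR, ACTA2 and PFN1. The 15 called genes are 27.3% of the set, against 35.6% of all 13825 genes called in the same comparison, 18% higher and 17.6% lower. The median log2 fold change was 0.11 over the set and -0.04 over all genes. With the replicate number as a block, 24 of the 55 genes were called, against 55.3% of all genes. Removal of the length trend gave 22, against 38.6% of all genes, with SRF, PFN2, CAPG, ACTR3, DIAPH1, MYH9, MYH10, TPM4 and TAGLN added and ACTA2 and PFN1 lost. Without EV replicate 2, the library with the widest length trend, 20 genes of the set were called, while 7 were called without EV replicate 1 and 7 without SPANX KD 86 replicate 2. Over all 13825 genes the counts moved the same way, with 6014, 3444 and 3056 called in that order, against 4925 with all libraries. The libraries of SPANX KD 86 and EV did not overlap for 16 genes of the set (29.1%), against 45.3% of all genes.

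With SPANX KD 87, 6 of the 55 genes rose and 2 fell. GSN, RHOB, RHOC, CNN2, ACTA2 and TES rose, and VASP and CDC42 fell. These 8 genes are 14.5% of the set, against 10.4% of all genes called, 5.92% higher and 4.43% lower. The median log2 fold change was 0.09 over the set and -0.00 over all genes. The block gave 14 of the 55 genes, against 31% of all genes, and removal of the length trend 8, against 15.2%, with MYH10 added and TES lost. Without EV replicate 2 the count was 11, and it was 5 without EV replicate 1, EV replicate 3 or SPANX KD 87 replicate 2 and 4 without SPANX KD 87 replicate 1. Libraries of SPANX KD 87 and EV did not overlap for 14 genes (25.5%), against 29.2% of all genes. Both comparisons use the same EV libraries, so GSN, RHOB and RHOC, which were called in each, are given below with the values of each construct side by side. For the mean of both constructs, used to choose examples in the lists further on, 9 genes of the set were called, against 24.2% of all genes, and 18 under the block, against 47% of all genes.

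**Figure D2:**
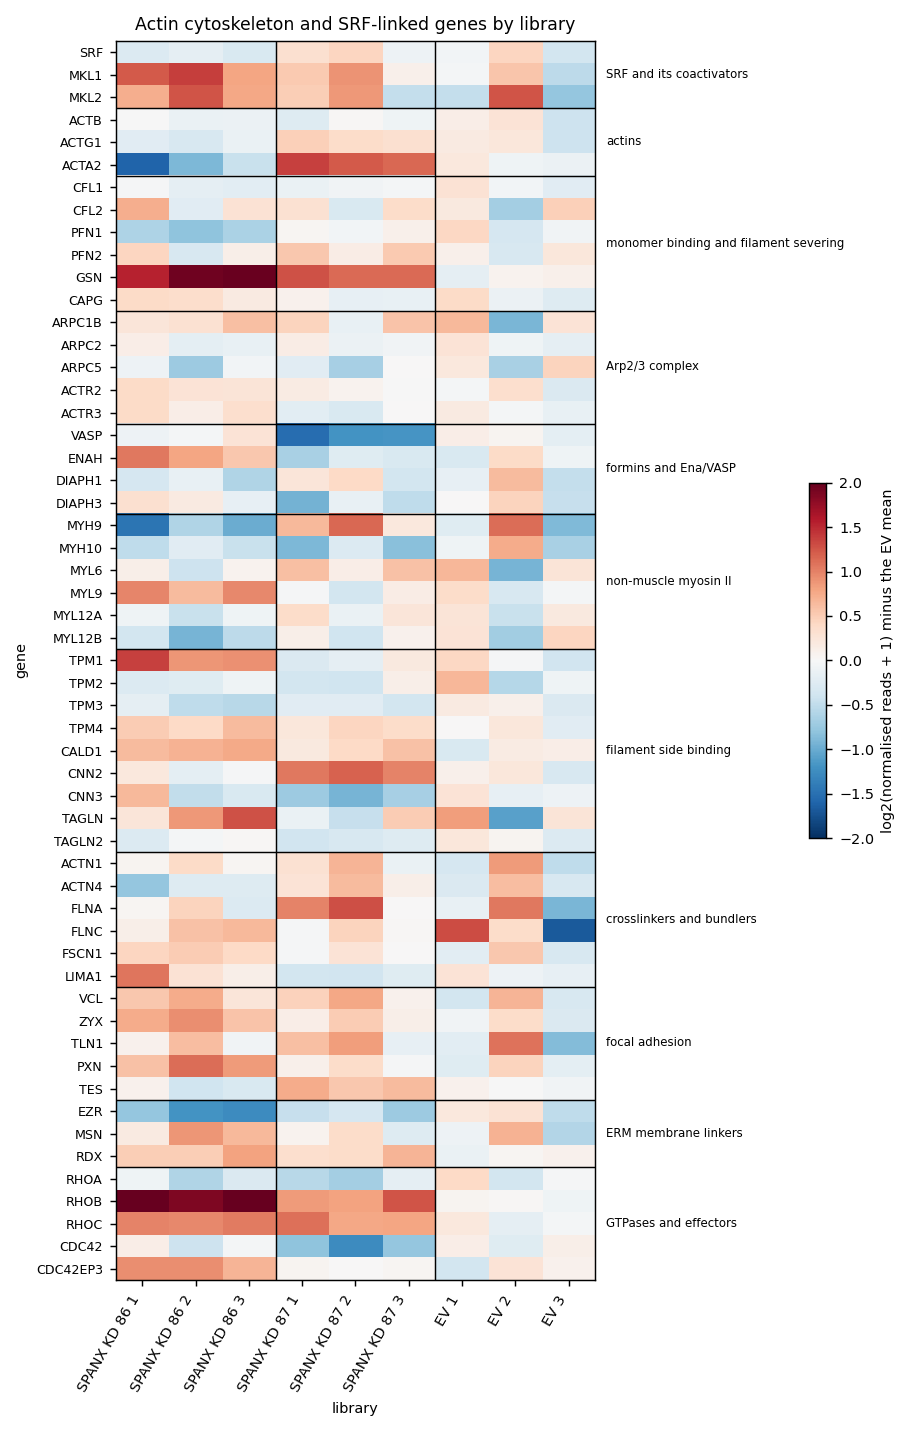
Each row is 1 of the 55 genes, grouped by role, and each column 1 library, with SPANX KD 86 on the left, SPANX KD 87 in the middle and EV on the right. Colour is log2(normalised reads + 1) minus the mean of the EV libraries, with values beyond -2 and 2 drawn at the ends of the scale. RHOB and GSN are the darkest red rows with SPANX KD 86, and ACTA2 is blue with SPANX KD 86 and red with SPANX KD 87.

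**Figure D3:**
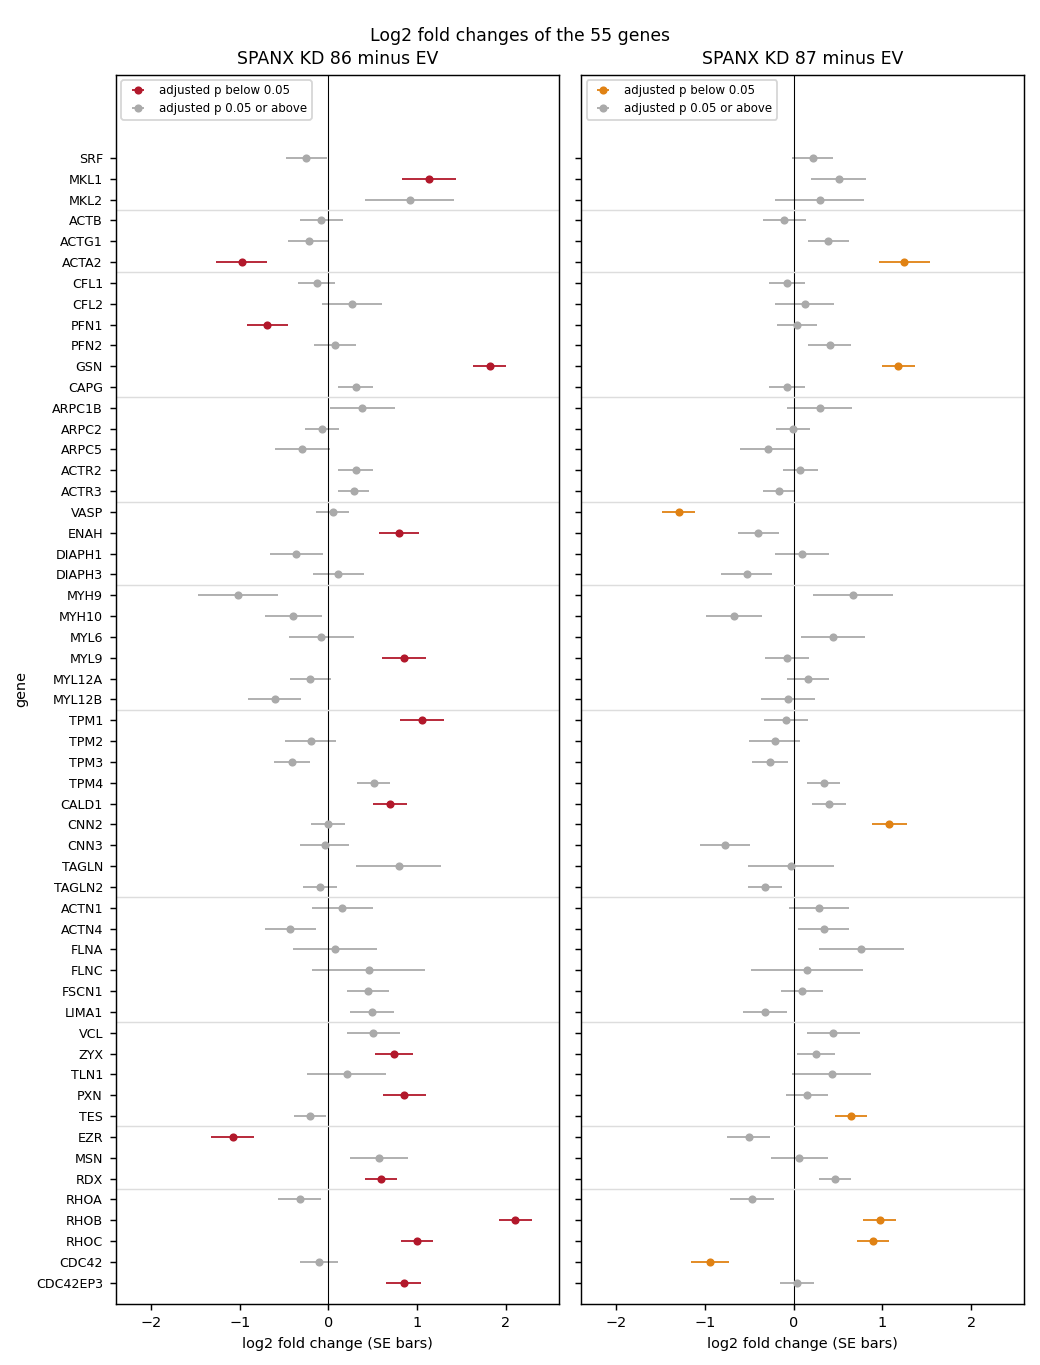
The x axes give the log2 fold change of SPANX KD 86 minus EV (left) and of SPANX KD 87 minus EV (right), with bars of 1 standard error, and the rows are the 55 genes in the order of their roles. Coloured points passed the adjusted p of 0.05, which 15 genes did on the left and 8 on the right.

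CArG boxes were looked for in the promoters, since SRF binds them and several of the genes moved. The windows run 250 bases before to 50 bases after each start site in the RefSeq promoter table (GRCh38.p14), in which 50 of the 56 genes had an entry, with 96 promoters between them. ACTB, ARPC1B, FSCN1, MYL9, PFN2 and TAGLN had none. A CArG box, read on both strands, stood in 7 of the 96 promoters (7.29%), of 7 genes, against 454 of all 35116 promoters (1.29%). A box with 1 letter off stood in 17.7% of the promoters of the set and 17.9% of all promoters, and a GC box, GGGCGG on either strand, in 67.7% and 45.0%. The genes were put in the set with SRF in mind, so the share with a CArG box is not independent of that choice. A match is a description of the letters and not a site of binding. The stretches around the 7 matches follow, 5′ to 3′ on the strand of the gene, with the CArG boxes in capitals.
SRF: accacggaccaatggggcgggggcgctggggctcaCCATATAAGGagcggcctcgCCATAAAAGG
ACTG1: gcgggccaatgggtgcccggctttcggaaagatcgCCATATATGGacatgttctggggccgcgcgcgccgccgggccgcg
CNN2: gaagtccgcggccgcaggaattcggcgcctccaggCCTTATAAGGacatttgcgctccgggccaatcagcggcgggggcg
TPM4: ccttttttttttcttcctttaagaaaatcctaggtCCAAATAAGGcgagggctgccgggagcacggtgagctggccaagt
ACTN1: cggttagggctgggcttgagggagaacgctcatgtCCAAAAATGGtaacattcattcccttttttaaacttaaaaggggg
FLNA: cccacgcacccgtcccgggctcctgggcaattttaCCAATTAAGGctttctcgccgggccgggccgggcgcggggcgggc
TES: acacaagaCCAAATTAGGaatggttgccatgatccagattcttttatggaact
The stretch of SRF lies at chr6:43171204-43171268, plus strand, with 2 boxes that begin 30 and 10 bases before the start site. That of ACTG1 lies at chr17:81512849-81512928, minus strand, with its box 94 bases before the start. The CNN2 stretch lies at chr19:1026484-1026563, plus strand, with its box 89 bases before the start, and the TPM4 stretch at chr19:16067330-16067409, plus strand, with its box 173 bases before the start. The stretch of ACTN1 lies at chr14:68977693-68977772, minus strand (box 171 bases before the start), that of FLNA at chrX:154374684-154374763, minus strand (box 94 bases before) and that of TES at chr7:116222703-116222755, plus strand (box 242 bases before). Of these 7 genes, CNN2 and TES rose with SPANX KD 87, against 10.4% of all genes called, and none was called with SPANX KD 86, against 35.6%. After removal of the length trend TES was lost (adjusted p = 0.0598), and SRF and TPM4 passed with SPANX KD 86 (adjusted p = 0.0363 and 0.0361). Under the block TPM4 passed with SPANX KD 86 (adjusted p = 0.0187) and FLNA with SPANX KD 87 (adjusted p = 0.0289). Whether the boxes have a part in these values was not tested.

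The promoter of ACTA2, which encodes smooth muscle actin and had the largest difference between the constructs of the 55 tested genes, holds no full CArG box in its window. It has 2 matches with 1 letter off, here in capitals, which begin 121 and 71 bases before the start site in the stretch at chr10:88952800-88952929, minus strand.
ACTA2: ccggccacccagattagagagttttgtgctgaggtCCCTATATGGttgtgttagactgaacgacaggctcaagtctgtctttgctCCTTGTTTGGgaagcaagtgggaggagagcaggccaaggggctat

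Among SRF and its coactivators, MKL1 alone was called. SRF, the transcription factor itself, stood at 559, 594 and 545 normalised reads in the SPANX KD 86 libraries, 835, 910.3 and 624 in the SPANX KD 87 libraries and 646, 904 and 521 in the EV libraries. Both knockdown groups overlapped with EV, although the SPANX KD 86 libraries all lay below the SPANX KD 87 libraries. SRF was not called with SPANX KD 86 (log2 fold change -0.25 ± 0.23, SE, adjusted p = 0.424) or SPANX KD 87 (log2 fold change 0.21 ± 0.23, SE, adjusted p = 0.584). After removal of the length trend its adjusted p was 0.0363 for SPANX KD 86 against EV.

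MKL1 stood at 548, 612 and 402 normalised reads with SPANX KD 86, 336, 437 and 249 with SPANX KD 87 and 228, 344 and 162 in EV libraries. All 3 SPANX KD 86 libraries lay above all EV libraries, and within each group replicate 2 was highest and replicate 3 lowest. MKL1 rose with SPANX KD 86 (log2 fold change 1.13 ± 0.31, SE, adjusted p = 0.0166), 2.19-fold higher. The call was lost without EV replicate 1, EV replicate 3 or SPANX KD 86 replicate 2, with an adjusted p of up to 0.0689. With SPANX KD 87 it was not called (log2 fold change 0.51 ± 0.31, SE, adjusted p = 0.317), but the block gave an adjusted p of 0.0323. MKL2 stood at 232, 333 and 238 with SPANX KD 86, 195, 255 and 99.8 with SPANX KD 87 and 100.01, 333 and 80.8 in EV libraries. EV replicate 2 lay as high as the highest knockdown library, and the groups overlapped. MKL2 was not called with SPANX KD 86 (log2 fold change 0.92 ± 0.50, SE, adjusted p = 0.177), where the block gave an adjusted p of 0.0183, nor with SPANX KD 87 (log2 fold change 0.29 ± 0.50, SE, adjusted p = 0.743). A gene that overlaps MKL1 on the other strand, SGSM3, had a highest deposited value of 31. The sources used here do not say whether counting used the strand.

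The actins divided between the cytoplasmic genes, which were not called, and ACTA2, which moved in opposite directions with the 2 constructs. ACTB, which encodes beta-actin, stood at 34604, 31756 and 32041 normalised reads with SPANX KD 86, 29015, 35269 and 32571 with SPANX KD 87 and 38141, 41815 and 26041 in EV libraries. EV libraries held both the highest and the lowest value of the 9. Its log2 fold change was -0.08 ± 0.24 (SE) with SPANX KD 86 (adjusted p = 0.82) and -0.11 ± 0.24 with SPANX KD 87 (adjusted p = 0.807). The sign of the SPANX KD 86 value turned, to 0.05, when the length trend was removed.

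ACTG1, which encodes gamma-actin, stood at 25000.0, 23453 and 26830.0 normalised reads with SPANX KD 86, 40903, 37635 and 36677 with SPANX KD 87 and 33179, 34379 and 21990.0 in EV libraries. The 3 SPANX KD 87 libraries lay above all others. Neither construct was called against EV, with log2 fold changes of -0.22 ± 0.23 (SE, adjusted p = 0.479) and 0.39 ± 0.23 (SE, adjusted p = 0.311). Between constructs the difference was -0.61 ± 0.23 (SE, adjusted p = 0.0792), and the block gave an adjusted p of 0.0287.

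ACTA2 (ENSG00000107796.13) stood at 50.4, 82.6 and 114 normalised reads with SPANX KD 86, 401, 361 and 345 with SPANX KD 87 and 179, 145 and 142 in EV libraries. No group overlapped with another, with SPANX KD 86 lowest and SPANX KD 87 highest. It fell with SPANX KD 86 (log2 fold change -0.98 ± 0.28, SE, adjusted p = 0.0217), 1.97-fold lower, and rose with SPANX KD 87 (log2 fold change 1.25 ± 0.28, SE, adjusted p = 0.0215), 2.37-fold higher. The SPANX KD 86 call was lost after removal of the length trend (adjusted p = 0.0544) and without EV replicate 1, SPANX KD 86 replicate 1 or SPANX KD 86 replicate 2, with an adjusted p of up to 0.0774. The SPANX KD 87 call was lost without EV replicate 1, EV replicate 3, SPANX KD 87 replicate 1 or SPANX KD 87 replicate 2, with an adjusted p of up to 0.0995. The difference between constructs was -2.23 ± 0.28 on the log2 scale (SE, adjusted p = 0.000529), and that call was kept without each library in turn. Among the smooth muscle markers beside it, DES had 14 to 46, 26 to 34 and 23 to 130 in SPANX KD 86, SPANX KD 87 and EV libraries, and the other 3 were listed at 0.

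**Figure D4:**
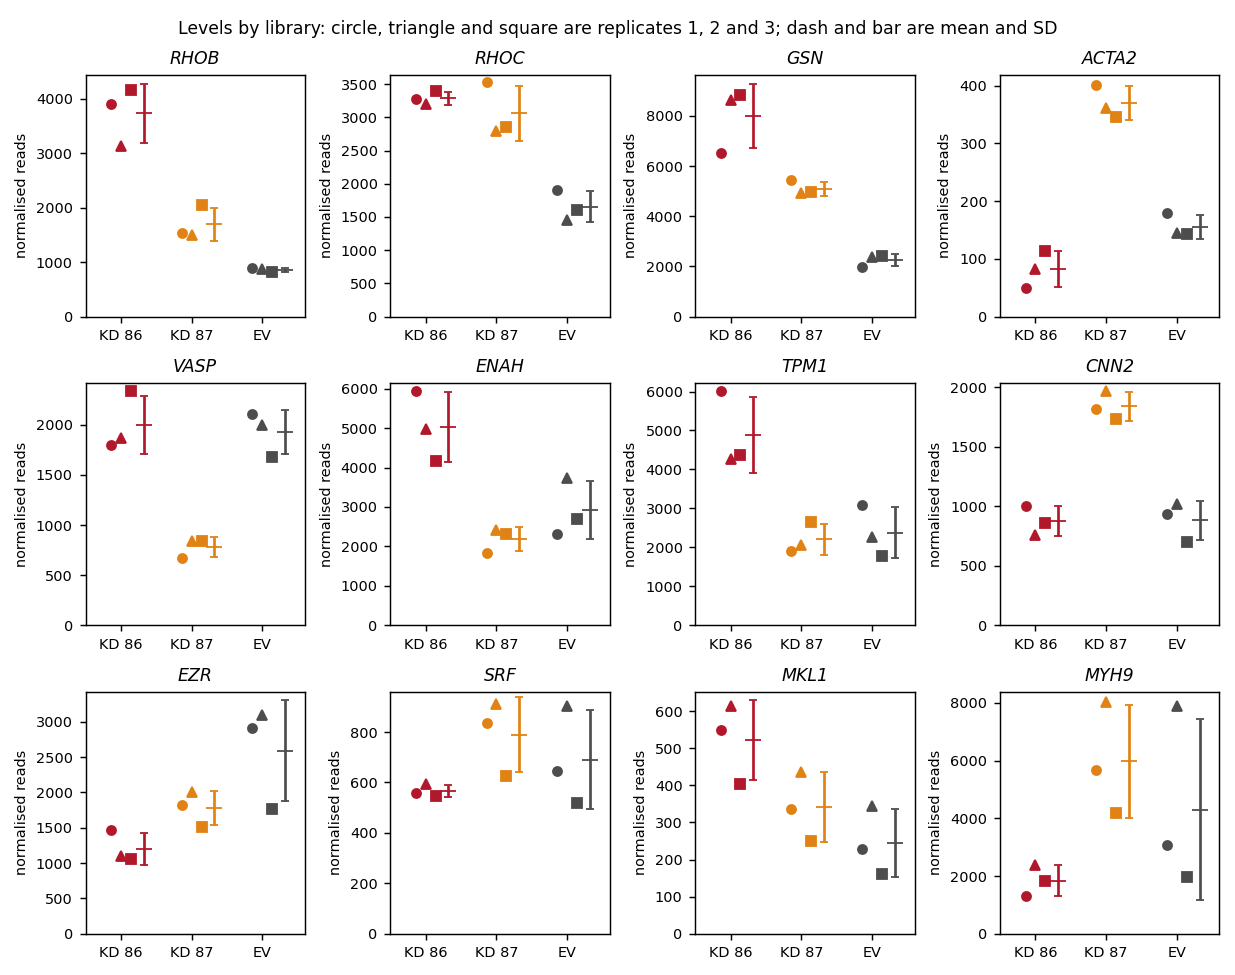
Normalised reads of 12 of the genes (y axes, from 0) in the libraries of SPANX KD 86, SPANX KD 87 and EV, with a circle, triangle and square for replicates 1, 2 and 3 and the mean with its SD at the right of each group. RHOB is highest with SPANX KD 86 and lowest in EV, ACTA2 has no overlap between any of them, and for SRF, MKL1 and MYH9 the triangle is the highest point of each group.

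Among the proteins that bind monomers or sever filaments, GSN rose with both constructs and PFN1 fell with SPANX KD 86. GSN encodes gelsolin, which cuts and caps filaments in the presence of calcium. GSN (ENSG00000148180.19) stood at 6512, 8643 and 8828 normalised reads with SPANX KD 86, 5429, 4921 and 4952 with SPANX KD 87 and 1980.2, 2371 and 2421 in EV libraries. Both knockdown groups lay wholly above EV, and SPANX KD 86 wholly above SPANX KD 87. It rose 3.52-fold higher with SPANX KD 86 (log2 fold change 1.82 ± 0.19, SE, adjusted p = 0.000132) and 2.27-fold higher with SPANX KD 87 (log2 fold change 1.18 ± 0.19, SE, adjusted p = 0.00538), and both calls were kept without each library in turn. The difference between constructs was called as well (log2 fold change 0.64 ± 0.19, SE, adjusted p = 0.0304), but was lost without any one of 5 knockdown libraries, all but SPANX KD 86 replicate 1, with an adjusted p of up to 0.117.

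PFN1, which encodes the profilin that loads monomers with ATP, fell with SPANX KD 86. It averaged 11863 ± 859.8 normalised reads with SPANX KD 86, 19526 ± 1049.8 with SPANX KD 87 and 19517 ± 5226 in EV libraries (SD, n = 3 each), and SPANX KD 86 did not overlap with EV. The fall (log2 fold change -0.69 ± 0.23, SE, adjusted p = 0.0364) was lost after removal of the length trend (adjusted p = 0.105) and without any 1 library other than EV replicate 2, with an adjusted p of up to 0.128. CFL1 and CFL2, the cofilins that sever filaments, had log2 fold changes of -0.13 and 0.27 with SPANX KD 86 and -0.08 and 0.12 with SPANX KD 87. The second profilin, PFN2, had 0.07 and 0.40, and the capping protein CAPG 0.31 and -0.08. None of these 4 genes was called with either construct, but removal of the length trend gave PFN2 an adjusted p of 0.0404 and CAPG one of 0.0463 with SPANX KD 86, with log2 fold changes of 0.53 and 0.60.

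No Arp2/3 complex gene, of 5 measured, was called with either construct or between constructs. These genes encode the machine that starts branches on existing filaments. Their log2 fold changes lay between -0.29 (ARPC5) and 0.38 (ARPC1B) with SPANX KD 86 and between -0.29 (ARPC5) and 0.29 (ARPC1B) with SPANX KD 87. ARPC2, ACTR2 and ACTR3 lay within these ranges, and the block gave an adjusted p of 0.0268 for ACTR3 between constructs, where its log2 difference was 0.45. Removal of the length trend gave ACTR3 an adjusted p of 0.0406 with SPANX KD 86.

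The Ena/VASP proteins, which speed filament growth at the leading edge, differed by construct. VASP stood at 1798, 1868 and 2334 normalised reads with SPANX KD 86, 667, 842 and 844 with SPANX KD 87 and 2108, 1999 and 1684 in EV libraries. All SPANX KD 87 libraries lay below all others, and SPANX KD 86 and EV overlapped. VASP fell with SPANX KD 87 (log2 fold change -1.30 ± 0.19, SE, adjusted p = 0.00365), 2.46-fold lower, and this call was kept without each library in turn. With SPANX KD 86 its log2 fold change was 0.05 ± 0.19 (SE, adjusted p = 0.864), a value that turned negative under upper-quartile scaling.

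ENAH, which encodes the second protein of this family in the set, stood at 5939, 4973 and 4164 normalised reads with SPANX KD 86, 1828, 2421 and 2312 with SPANX KD 87 and 2321, 3746 and 2706 in EV libraries. The SPANX KD 86 libraries lay above all others. ENAH rose with SPANX KD 86 (log2 fold change 0.79 ± 0.23, SE, adjusted p = 0.0211), 1.73-fold higher, but the call was lost without EV replicate 1, EV replicate 3, SPANX KD 86 replicate 1 or SPANX KD 86 replicate 2, with an adjusted p of up to 0.0802. With SPANX KD 87 it was not called (log2 fold change -0.40 ± 0.23, SE, adjusted p = 0.287). Between constructs VASP differed by 1.35 ± 0.19 and ENAH by 1.20 ± 0.23 on the log2 scale (SE, adjusted p = 0.000785 and 0.00391), both higher with SPANX KD 86 and both called without each library in turn. The formins DIAPH1 and DIAPH3, which extend straight filaments, had log2 fold changes of -0.36 and 0.11 with SPANX KD 86 and 0.09 and -0.53 with SPANX KD 87, none of them called. Removal of the length trend gave DIAPH1 an adjusted p of 0.0109 with SPANX KD 86.

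Of the 6 genes of non-muscle myosin II, the motor that pulls on filaments, MYL9 was the one called against EV. MYL9, a regulatory light chain, stood at 267, 211 and 265 normalised reads with SPANX KD 86, 133, 104 and 151 with SPANX KD 87 and 176, 108 and 132 in EV libraries. The SPANX KD 86 libraries lay above all others. MYL9 rose with SPANX KD 86 (log2 fold change 0.86 ± 0.25, SE, adjusted p = 0.0215), 1.81-fold higher, and the call was lost without EV replicate 2, EV replicate 3, SPANX KD 86 replicate 1 or SPANX KD 86 replicate 3, with an adjusted p of up to 0.064. With SPANX KD 87 it had a log2 fold change of -0.08 ± 0.25 (SE, adjusted p = 0.863).

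MYH9, the heavy chain of myosin IIA, stood at 1312, 2387 and 1815 normalised reads with SPANX KD 86, 5690.5, 8048 and 4179.5 with SPANX KD 87 and 3060.2, 7887 and 1970.3 in EV libraries. EV libraries spread widely, with replicate 3 at the low end and replicate 2 at the high end, and overlapped with both knockdown groups, which did not overlap with each other. MYH9 was not called with SPANX KD 86 (log2 fold change -1.02 ± 0.45, SE, adjusted p = 0.102), where the block gave an adjusted p of 0.00552 and removal of the length trend 0.0137, nor with SPANX KD 87 (log2 fold change 0.67 ± 0.45, SE, adjusted p = 0.369). It was 3.23-fold lower with SPANX KD 86 than with SPANX KD 87 (log2 fold change -1.69 ± 0.45, SE, adjusted p = 0.0199), a call lost without SPANX KD 86 replicate 1, SPANX KD 87 replicate 1 or SPANX KD 87 replicate 2, with an adjusted p of up to 0.0778. MYH10, the heavy chain of myosin IIB, had log2 fold changes of -0.39 with SPANX KD 86 and -0.67 with SPANX KD 87. It was not called as such, but passed after removal of the length trend with both constructs (adjusted p = 0.0101 and 0.0176) and under the block with SPANX KD 87 (adjusted p = 0.0255). The other light chain genes, MYL6, MYL12A and MYL12B, lay between -0.61 and -0.08 with SPANX KD 86 and between -0.06 and 0.44 with SPANX KD 87. The block called MYL12B with SPANX KD 86, with an adjusted p of 0.00858.

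Among the proteins that lie along filaments, TPM1 and CALD1 rose with SPANX KD 86 and CNN2 with SPANX KD 87. TPM1, which encodes a tropomyosin, stood at 6004, 4272 and 4375 normalised reads with SPANX KD 86, 1903, 2058 and 2649 with SPANX KD 87 and 3084, 2277 and 1778 in EV libraries. The SPANX KD 86 libraries lay above all others, and SPANX KD 87 overlapped with EV. It rose 2.08-fold higher with SPANX KD 86 (log2 fold change 1.06 ± 0.24, SE, adjusted p = 0.00774), a call kept without each library in turn, and had -0.09 ± 0.24 (SE, adjusted p = 0.842) with SPANX KD 87. The other tropomyosins were not called. TPM2, TPM3 and TPM4 had log2 fold changes of -0.20, -0.42 and 0.51 with SPANX KD 86 and -0.22, -0.27 and 0.34 with SPANX KD 87. The block gave adjusted p = 0.0369 for TPM3 and 0.0187 for TPM4 with SPANX KD 86, and removal of the length trend 0.0361 for TPM4.

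CALD1, which encodes caldesmon, a filament protein that restrains myosin, stood at 2460.3, 2574 and 2669.8 normalised reads with SPANX KD 86, 1816, 2096 and 2384 with SPANX KD 87 and 1288, 1782 and 1739 in EV libraries. Both knockdown groups lay above EV. It rose with SPANX KD 86 (log2 fold change 0.69 ± 0.19, SE, adjusted p = 0.0166), though not without EV replicate 1, SPANX KD 86 replicate 2 or SPANX KD 86 replicate 3 (adjusted p of up to 0.0592), and was not called with SPANX KD 87 (log2 fold change 0.40 ± 0.19, SE, adjusted p = 0.206).

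CNN2, which encodes a calponin, stood at 1004, 757 and 858 normalised reads with SPANX KD 86, 1812, 1969.6 and 1732 with SPANX KD 87 and 930.1, 1017 and 697 in EV libraries. The SPANX KD 87 libraries lay above all others, while SPANX KD 86 overlapped with EV. CNN2 rose 2.11-fold higher with SPANX KD 87 (log2 fold change 1.08 ± 0.20, SE, adjusted p = 0.00903), a call kept without each library in turn, and its log2 fold change with SPANX KD 86 was -0.00 ± 0.20 (SE, adjusted p = 0.987), with a sign that turned under median-ratio scaling. CNN3, a related calponin, was not called, with -0.04 and -0.77, and passed with SPANX KD 87 under the block (adjusted p = 0.0121).

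TAGLN, which encodes transgelin and is a widely used SRF target, stood at 65.9, 102 and 136 normalised reads with SPANX KD 86, 50.4, 40.2 and 79.4 with SPANX KD 87 and 100.01, 25.6 and 66.8 in EV libraries. The groups overlapped. It was not called with SPANX KD 86 (log2 fold change 0.79 ± 0.48, SE, adjusted p = 0.223), where removal of the length trend gave an adjusted p of 0.0479, or with SPANX KD 87 (log2 fold change -0.03 ± 0.48, SE, adjusted p = 0.976). PCSK7, which overlaps it on the other strand, had a highest deposited value of 1376, far above the level of TAGLN. TAGLN2 had log2 fold changes of -0.10 and -0.32, and was not called.

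The crosslinkers and bundlers were not called with either construct. ACTN1 and ACTN4, the alpha-actinins, had log2 fold changes of 0.16 and -0.43 with SPANX KD 86 and 0.29 and 0.34 with SPANX KD 87. The filamins FLNA and FLNC had 0.07 and 0.45 with SPANX KD 86 and 0.76 and 0.15 with SPANX KD 87. FLNA averaged 15475 ± 3883 normalised reads with SPANX KD 86, 26102 ± 10574 with SPANX KD 87 and 16909 ± 11710.0 in EV libraries (SD, n = 3 each), a spread within EV as wide as the differences, and passed with SPANX KD 87 under the block (adjusted p = 0.0289). FLNC rested on few reads, 22.6 ± 4.52, 18.1 ± 3.61 and 22.1 ± 18.4 in the same order of groups. FSCN1, the bundler fascin, and LIMA1, a filament stabiliser also called EPLIN, had 0.45 and 0.49 with SPANX KD 86 and 0.09 and -0.33 with SPANX KD 87. Both passed with SPANX KD 86 under the block (adjusted p = 0.0433 and 0.0431). LIMA1 was 1.76-fold higher with SPANX KD 86 than with SPANX KD 87 (log2 fold change 0.81 ± 0.25, SE, adjusted p = 0.0348), a call lost after removal of the length trend (adjusted p = 0.0721) and without any one of 5 knockdown libraries, all but SPANX KD 86 replicate 3, with an adjusted p of up to 0.106.

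At focal adhesions, where filaments are tied to integrins, PXN and ZYX rose with SPANX KD 86 and TES with SPANX KD 87. PXN, which encodes the scaffold paxillin, stood at 8549.9, 12363 and 10260.0 normalised reads with SPANX KD 86, 6095, 7282 and 5585 with SPANX KD 87 and 4818, 7683 and 4928 in EV libraries. All SPANX KD 86 libraries lay above all others. It rose 1.81-fold higher with SPANX KD 86 (log2 fold change 0.86 ± 0.24, SE, adjusted p = 0.0186) and had 0.15 ± 0.24 (SE, adjusted p = 0.727) with SPANX KD 87. The call was lost without EV replicate 1, EV replicate 3 or SPANX KD 86 replicate 2, with an adjusted p of up to 0.0824. The antisense gene PXN-AS1 had a highest deposited value of 115.

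ZYX, which encodes zyxin, a sensor of stretched filaments, stood at 3372, 3842 and 2998 normalised reads with SPANX KD 86, 2228, 2870.5 and 2183 with SPANX KD 87 and 1929, 2603 and 1647 in EV libraries. Again the SPANX KD 86 libraries were the highest. ZYX rose 1.67-fold higher with SPANX KD 86 (log2 fold change 0.74 ± 0.22, SE, adjusted p = 0.0216), a call lost without EV replicate 1, EV replicate 3, SPANX KD 86 replicate 1 or SPANX KD 86 replicate 2 (adjusted p of up to 0.0894), and had 0.25 ± 0.22 (SE, adjusted p = 0.481) with SPANX KD 87.

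TES, which encodes testin, a partner of zyxin, stood at 1011, 719 and 768 normalised reads with SPANX KD 86, 1589, 1385 and 1476 with SPANX KD 87 and 1003, 946 and 900.0 in EV libraries. Here the SPANX KD 87 libraries were the highest, and those of SPANX KD 86 overlapped with EV. TES rose 1.56-fold higher with SPANX KD 87 (log2 fold change 0.64 ± 0.18, SE, adjusted p = 0.0476) and had -0.20 ± 0.18 (SE, adjusted p = 0.399) with SPANX KD 86. The SPANX KD 87 call lay just under the threshold, and was lost after removal of the length trend (adjusted p = 0.0598) and without any 1 library other than EV replicate 2 or SPANX KD 86 replicate 1, with an adjusted p of up to 0.179. VCL and TLN1, which encode vinculin and talin, the links between integrins and filaments, were not called, with log2 fold changes of 0.51 and 0.21 with SPANX KD 86 and 0.45 and 0.43 with SPANX KD 87. The block gave VCL an adjusted p of 0.0258 with SPANX KD 86.

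The ERM proteins, which fasten filaments to the plasma membrane, went opposite ways with SPANX KD 86. EZR, which encodes ezrin, stood at 1466, 1094 and 1053 normalised reads with SPANX KD 86, 1823, 2001 and 1516 with SPANX KD 87 and 2918, 3091 and 1769.8 in EV libraries. All SPANX KD 86 libraries lay below all others, and SPANX KD 87 overlapped with EV. EZR fell with SPANX KD 86 (log2 fold change -1.08 ± 0.25, SE, adjusted p = 0.00707), 2.11-fold lower, a call kept without each library in turn. It was not called with SPANX KD 87 (log2 fold change -0.51 ± 0.25, SE, adjusted p = 0.208), where the block gave an adjusted p of 0.0373.

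RDX, which encodes radixin, averaged 2350.3 ± 309 normalised reads with SPANX KD 86, 2142 ± 293 with SPANX KD 87 and 1549.8 ± 119 in EV libraries (SD, n = 3 each), with both knockdown groups above EV. It rose with SPANX KD 86 (log2 fold change 0.60 ± 0.18, SE, adjusted p = 0.0257), a call lost without EV replicate 1, SPANX KD 86 replicate 2 or SPANX KD 86 replicate 3 (adjusted p of up to 0.1), and was not called with SPANX KD 87 (log2 fold change 0.46 ± 0.18, SE, adjusted p = 0.127), where the block gave an adjusted p of 0.023. MSN, which encodes moesin, was not called, with log2 fold changes of 0.57 and 0.06, and passed with SPANX KD 86 under the block (adjusted p = 0.0329).

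The small GTPases, switches that act on the cytoskeleton, held the largest rise of the 55 tested genes with SPANX KD 86. RHOB, a small GTPase found on endosomes (ENSG00000143878.9), stood at 3906, 3132 and 4167 normalised reads with SPANX KD 86, 1543, 1499 and 2048 with SPANX KD 87 and 891, 875 and 813 in EV libraries. The 3 groups did not overlap, with SPANX KD 86 highest and EV lowest. RHOB rose 4.31-fold higher with SPANX KD 86 (log2 fold change 2.11 ± 0.19, SE, adjusted p = 7.18e-05) and 1.95-fold higher with SPANX KD 87 (log2 fold change 0.97 ± 0.19, SE, adjusted p = 0.0119). The difference between constructs was called too (log2 fold change 1.14 ± 0.19, SE, adjusted p = 0.00192), and all 3 calls were kept without each library in turn.

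RHOC, a small GTPase known for its part in melanoma spread, stood at 3270.0, 3194 and 3391 normalised reads with SPANX KD 86, 3537, 2794 and 2848 with SPANX KD 87 and 1905, 1448 and 1605 in EV libraries. Both knockdown groups lay above EV and overlapped with each other. RHOC rose 2-fold higher with SPANX KD 86 (log2 fold change 1.00 ± 0.18, SE, adjusted p = 0.00215) and 1.85-fold higher with SPANX KD 87 (log2 fold change 0.89 ± 0.18, SE, adjusted p = 0.013). The second call was lost without SPANX KD 87 replicate 1, with an adjusted p of 0.074. Between constructs RHOC differed by 0.11 ± 0.18 (SE, adjusted p = 0.698). RHOA, the best known of the family, was not called, with -0.33 ± 0.25 and -0.47 ± 0.25 on the log2 scale (SE).

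CDC42, the GTPase of filopodia, averaged 2762 ± 519 normalised reads with SPANX KD 86, 1543 ± 272 with SPANX KD 87 and 2958 ± 423 in EV libraries (SD, n = 3 each). All SPANX KD 87 libraries lay below all others. It fell with SPANX KD 87 (log2 fold change -0.94 ± 0.22, SE, adjusted p = 0.0222), a call lost without EV replicate 1, EV replicate 3, SPANX KD 87 replicate 1 or SPANX KD 87 replicate 2 (adjusted p of up to 0.0949), and had -0.11 ± 0.22 (SE, adjusted p = 0.729) with SPANX KD 86. CDC42EP3, a CDC42 effector, stood at 2812, 2787 and 2366 normalised reads with SPANX KD 86, 1529, 1483 and 1508 with SPANX KD 87 and 1143, 1777 and 1564 in EV libraries. The SPANX KD 86 libraries lay above all others. CDC42EP3 rose 1.8-fold higher with SPANX KD 86 (log2 fold change 0.85 ± 0.19, SE, adjusted p = 0.00742), a call kept without each library in turn, and had 0.04 ± 0.19 (SE, adjusted p = 0.928) with SPANX KD 87. After removal of the length trend its log2 fold change with SPANX KD 86 was 0.48, just under the threshold (adjusted p = 0.0496).

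The constructs themselves were compared next, since several genes had moved with one and not the other. Between them, 14 of the 55 genes differed (25.5%), 9 higher and 5 lower with SPANX KD 86, against 25.6% of all genes, 12.9% higher and 12.7% lower. The share of the set was close to that of all genes. Higher with SPANX KD 86 were GSN, VASP, ENAH, MYL9, TPM1, LIMA1, RHOB, CDC42 and CDC42EP3, and lower were ACTA2, PFN1, MYH9, CNN2 and TES. Of these, ACTA2, VASP, ENAH, TPM1, CNN2, TES and RHOB were called without each library in turn. PFN1 (-0.72 ± 0.23, SE, adjusted p = 0.039) and CDC42 (0.84 ± 0.22, SE, adjusted p = 0.017) were lost without some knockdown libraries, with adjusted p of up to 0.136 and 0.0765. PFN1 was lost without any one of the 6 knockdown libraries, and CDC42 without SPANX KD 86 replicate 1, SPANX KD 86 replicate 3 or SPANX KD 87 replicate 2. MYL9 (log2 fold change 0.94 ± 0.25, SE, adjusted p = 0.0189) was lost without the same 3 libraries as CDC42, with an adjusted p of up to 0.0807, and CDC42EP3 (log2 fold change 0.81 ± 0.19, SE, adjusted p = 0.0118) without SPANX KD 86 replicate 2, with 0.051. Without SPANX KD 86 replicate 1 the count was 9, and without SPANX KD 87 replicate 2 it was 8. With the block 28 of the 55 genes differed, against 44.1% of all genes. The genes added were SRF, MKL1, ACTG1, ACTR3, DIAPH1, DIAPH3, MYL12A, MYL12B, CNN3, ACTN4, FLNA, ZYX, PXN and EZR, with adjusted p between 0.00334 (PXN) and 0.0483 (MYL12A). Removal of the length trend gave 19, against 30.4% of all genes, with SRF, ACTR3, DIAPH1, CNN3, FLNA and PXN added (adjusted p between 0.0209 for ACTR3 and 0.048 for CNN3) and LIMA1 lost. Libraries of the constructs did not overlap for 27 genes of the set (49.1%), against 45.3% of all genes. The median log2 difference was 0.14 over the set and -0.02 over all genes.

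Shares of reads within gene families were computed as well. The families were picked after the values were seen, so the shares are a description, and they are shares of 3' reads, not divided by length. TPM1 made up 20.2% ± 2.43 of the reads of TPM1 to TPM4 with SPANX KD 86, 10.3% ± 1.28 with SPANX KD 87 and 10.2% ± 0.881 in EV libraries (SD, n = 3 each, here and below). RHOB made up 27.0% ± 1.56 of the reads of RHOA, RHOB and RHOC with SPANX KD 86, 15.5% ± 1.21 with SPANX KD 87 and 7.97% ± 1.78 in EV libraries. No library of one group overlapped with another for RHOB. RHOC made up 24.0% ± 2.64, 28.3% ± 4.83 and 15.03% ± 1.34 in the same order of groups. CNN2 made up 21.1% ± 4.60 of the reads of CNN2 and CNN3 with SPANX KD 86, 48.1% ± 3.97 with SPANX KD 87 and 20.6% ± 4.01 in EV libraries. For EZR of EZR, MSN and RDX the shares were 11.3% ± 3.99, 19.5% ± 0.909 and 28.0% ± 4.32 in that order, and the groups did not overlap. MYH9 made up 62.5% ± 4.94, 86.6% ± 2.19 and 71.9% ± 4.55 of MYH9 and MYH10, with the SPANX KD 87 libraries all above the others. ACTG1 made up 43.3% ± 1.96, 54.4% ± 3.65 and 45.8% ± 0.701 of ACTB and ACTG1. VASP made up 28.8% ± 6.48, 26.4% ± 0.542 and 40.2% ± 6.61 of VASP and ENAH, and PFN1 75.9% ± 3.52, 80.6% ± 1.72 and 84.2% ± 2.75 of PFN1 and PFN2.

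**Figure D5:**
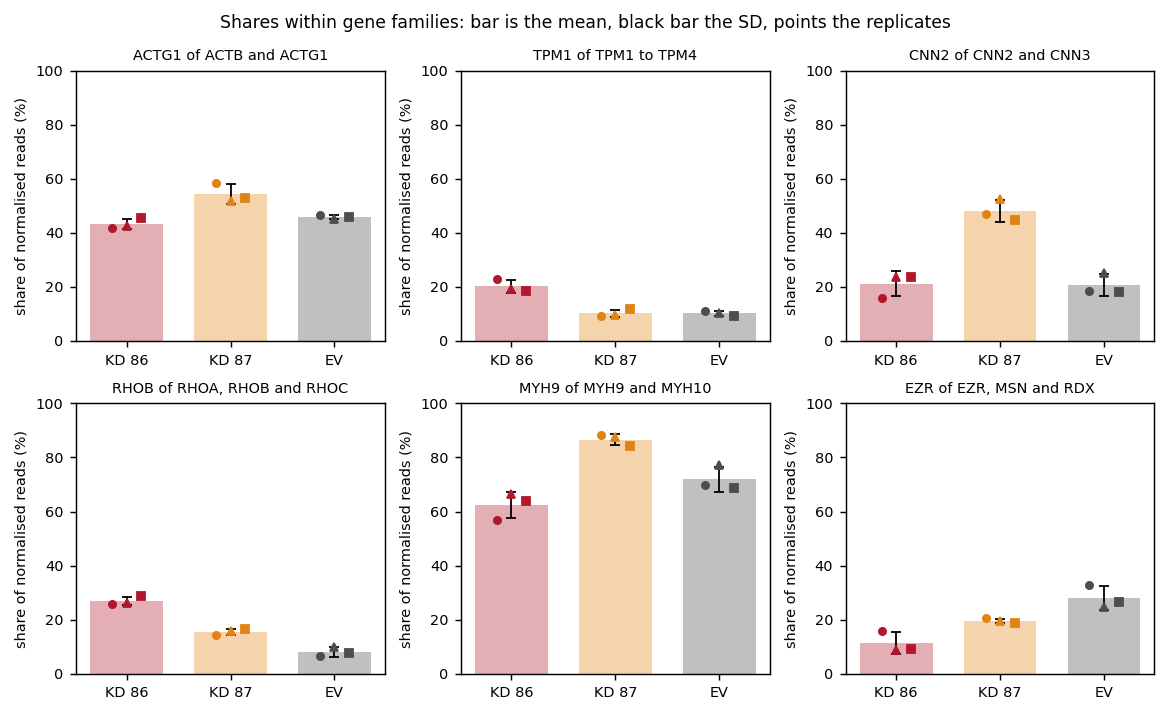
Share of the normalised reads of a gene family taken by 1 of its genes (y axes, percent, 0 to 100), for SPANX KD 86, SPANX KD 87 and EV. Bars are means, black bars the SD and points the 3 libraries, with a circle, triangle and square for replicates 1, 2 and 3. RHOB is highest and EZR lowest with SPANX KD 86, while TPM1 is highest with SPANX KD 86 and CNN2 with SPANX KD 87.

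Genes of the same pathway outside the set were read from 3 lists. Of 40 further genes listed as targets of SRF or its coactivators, 32 were tested. The list holds early response genes such as EGR3 beside actin-linked genes, and whether SRF acts on them was not tested. With SPANX KD 86, 11 rose and 3 fell, against 18% and 17.6% of all genes. With SPANX KD 87, 8 rose and 2 fell, against 5.92% and 4.43% of all genes. The median log2 fold changes of the list were 0.47 and 0.42. DUSP5, a phosphatase that switches off ERK, stood at 1982, 2269 and 2212 normalised reads with SPANX KD 86, 2328, 2283 and 1572 with SPANX KD 87 and 373, 511 and 429 in EV libraries. It rose 4.95-fold higher with SPANX KD 86 (log2 fold change 2.31 ± 0.21, SE, adjusted p = 7.1e-05) and 4.67-fold higher with SPANX KD 87 (log2 fold change 2.22 ± 0.21, SE, adjusted p = 0.000481). ITGA5, the fibronectin receptor subunit, rose 7.63-fold higher with SPANX KD 86 (adjusted p = 0.000206) and 3.02-fold higher with SPANX KD 87 (adjusted p = 0.0148), the second lost without EV replicate 1, SPANX KD 87 replicate 1 or SPANX KD 87 replicate 2 (adjusted p of up to 0.0698). EGR3, an early response transcription factor, rose 2.18-fold higher with SPANX KD 86 (adjusted p = 0.00677) and 3.41-fold higher with SPANX KD 87 (adjusted p = 0.00352). Under the block 20 of the 32 were called with each construct, against 55.3% of all genes with SPANX KD 86 and 31% with SPANX KD 87.

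Of 32 tested further filament and Arp2/3 genes, 9 rose and 1 fell with SPANX KD 86, and 1 rose and 1 fell with SPANX KD 87. These are 31.2% and 6.25% of the list, against 35.6% and 10.4% of all genes, with medians of 0.22 and 0.16. PLS3, the bundler plastin 3, rose 1.79-fold higher with SPANX KD 86 (adjusted p = 0.00465) and was not called with SPANX KD 87 (adjusted p = 0.0638, and 0.0112 under the block). SVIL, the membrane linker supervillin, rose 3.35-fold higher with SPANX KD 86 (adjusted p = 0.00736), and ANLN, the cytokinesis scaffold anillin, fell to levels 3.02-fold lower (adjusted p = 0.00343). With SPANX KD 87 neither was called, SVIL with adjusted p = 0.0536 (0.00282 under the block and 0.0115 after removal of the length trend) and ANLN with adjusted p = 0.194 (0.0268 and 0.0372 in the same order). ABI1, a subunit of the WAVE complex, rose 1.42-fold higher with SPANX KD 86 (adjusted p = 0.0299) and 1.5-fold higher with SPANX KD 87 (adjusted p = 0.0423), calls lost without most single libraries, with adjusted p of up to 0.0887 and 0.17, and after removal of the length trend (adjusted p = 0.148 and 0.0698). The block called 19 of the 32 with SPANX KD 86 and 12 with SPANX KD 87, against 55.3% and 31% of all genes.

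Of 22 further focal adhesion genes, 7 rose and 5 fell with SPANX KD 86, and 1 rose and 1 fell with SPANX KD 87. These are 54.5% and 9.09% of the list, against 35.6% and 10.4% of all genes, with medians of 0.09 and 0.07. PTK2, focal adhesion kinase, rose 1.96-fold higher with SPANX KD 86 (adjusted p = 0.00265) and 1.71-fold higher with SPANX KD 87 (adjusted p = 0.0232), the second lost without EV replicate 1, SPANX KD 87 replicate 1 or SPANX KD 87 replicate 2 (adjusted p of up to 0.09). The adaptors BCAR1 and CRK rose with SPANX KD 86, 2.87-fold higher (adjusted p = 0.000863) and 1.78-fold higher (adjusted p = 0.00259), and were not called with SPANX KD 87 (adjusted p = 0.419 and 0.16). RSU1, a partner of the integrin-linked kinase complex, fell with SPANX KD 86, 1.7-fold lower (adjusted p = 0.0112), and had adjusted p = 0.0647 with SPANX KD 87, where the block gave 0.0134 and removal of the length trend 0.0225. The block called 17 of the 22 with SPANX KD 86 and 6 with SPANX KD 87, against 55.3% and 31% of all genes. The lists were tested gene by gene in the same fit as the rest, and the median over all genes was -0.04 with SPANX KD 86 and -0.00 with SPANX KD 87.

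Near copies and overlapping genes can share reads with a gene. The files hold 75 named pseudogene copies of the genes in the set, of which 7 were above 0 in some library, among them copies of ACTB, CFL1, PFN1 and TPM3. Highest deposited values of these copies were 59 for ACTBP2, 34 for ACTBP8, 15 for CFL1P1, 31 for PFN1P1 and 121 for TPM3P9. The lowest levels of the genes themselves were 26041 normalised reads for ACTB, 17202 for CFL1, 10870 for PFN1 and 6587 for TPM3. Reads that fit a gene and its copy alike were not examined. Genes on the other strand that overlap a gene of the set and were above 0 were MUS81 for CFL1, SGSM3 for MKL1, SMARCC2 for MYL6, PXN-AS1 for PXN, PCSK7 for TAGLN, CREB3 for TLN1, AC008894.3 for TPM4 and AP3M1 for VCL. Whether reads were counted by strand is not given in the sources used here, so for these 8 genes the reads of a partner cannot be told apart if they were not. Highest deposited values of the partners were 31 for SGSM3, 62 for AC008894.3, 115 for PXN-AS1 and 1078 for MUS81. They were 1288 for CREB3, 1376 for PCSK7, 1477 for AP3M1 and 1695 for SMARCC2. PCSK7 lay far above TAGLN, which had at most 136 normalised reads in a library.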

How the data were processed

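Total RNA of A375 cells was sequenced from transcript 3' ends in 9 libraries, 3 per group (QuantSeq 3' FWD, per the labels' protocols). The authors deposited 1 value per gene and library, a score of scaled reads rounded to whole numbers. STAR, featureCounts, Subread and edgeR are named, with hg19 as the genome build and no versions, per the submitters' processing notes. Each file lists 60420 gene IDs, of which 45742 are at 0 in all libraries.

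Within each library the values step by a constant, from which the reads were recovered to within 1 read. The libraries were then scaled together by TMM (30% of log ratios and 5% of abundances trimmed) to give normalised reads. Because such values are not counts, the test was limma 3.58.1 in R 4.3.3 on log2(value + 1), with a variance trend, a coefficient per group and 6 residual degrees of freedom. P-values are two-sided, adjusted by Benjamini-Hochberg over 13825 genes and called below 0.05. The scripts were checked on simulated data that held no replicate effect and no length trend, so the check does not cover either. Fold changes are on the log2(value + 1) scale, which understates those of low genes. Recovered depth was 11.31 to 15.56 M reads, and the spread between 3 libraries a group limits the precision.

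The genes and lists were chosen with earlier results of these data known. Library values are printed for ACTB, ACTG1, ACTA2, TAGLN, MYH9, SRF, MKL1 and MKL2, for the 12 genes with the smallest adjusted p with SPANX KD 86, the 6 with SPANX KD 87 and up to 6 between constructs. Up to 4 genes of each other list are named, by smallest adjusted p for both constructs averaged. Some items are not reported here. For the replicate numbers, deviations from group means over 11805 genes correlated with r of 0.18 to 0.79 in the 9 pairs of libraries with the same number in different groups, and -0.70 to 0.22 in the other 18, so a fit with the number as a block was made. It lost 0 calls in the set. Alternatives were another scaling (as deposited, median ratio, upper quartile), a pseudocount of 5, a mean of at least 50 normalised reads, no variance trend, only the 2 groups compared, the length trend removed (by a 4-df spline in log transcript length, GENCODE v29, 13770 genes), and each library left out in turn. Transcript length is the median over the annotated basic transcripts of a gene, which need not be the length of the transcript these cells express.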

Additional observations from a re-analysis of the deposited data

Results flagged for a closer look

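The effect of knockdown differed between the constructs for 14 of the 55 genes, by limma's test of the difference itself, which is 25.5% of them, against 25.6% of all genes. As log2 differences of SPANX KD 86 minus SPANX KD 87, it was higher with SPANX KD 86 by 0.64 for GSN, 1.35 for VASP, 1.20 for ENAH, 0.94 for MYL9, 1.14 for TPM1, 0.81 for LIMA1, 1.14 for RHOB, 0.84 for CDC42 and 0.81 for CDC42EP3. It was lower with SPANX KD 86, at -2.23 for ACTA2, -0.72 for PFN1, -1.69 for MYH9, -1.08 for CNN2 and -0.85 for TES. Against EV, ACTA2 was called in opposite directions, at -0.98 with SPANX KD 86 and 1.25 with SPANX KD 87. VASP and CDC42 were called with SPANX KD 87 and not with SPANX KD 86, as were CNN2 and TES. TPM1, ENAH, MYL9, CDC42EP3 and PFN1 were called with SPANX KD 86 and not with SPANX KD 87, while MYH9 and LIMA1 were called with neither. GSN and RHOB were called with both. The cause was not tested.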

How the results depend on the processing

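Of 66 log2 fold changes of 22 named genes, each under 19 alternatives, 1130 values kept their direction and side of the threshold, 37 passed it, 54 fell below it and 33 changed sign. Genes called under the replicate block numbered 7647 with SPANX KD 86, 4283 with SPANX KD 87, 6094 between constructs and 6491 for the mean of both, with 24, 14, 28 and 18 of the set. Block and length removal together gave 7616, 4807, 6599 and 6576 genes, with 28, 17, 29 and 20 of the set, and only the 2 groups compared gave 857 genes with SPANX KD 87. Without single libraries the ranges were 3056 to 6014, 369 to 2554, 2207 to 4191 and 1459 to 4748 genes, and 7 to 20, 4 to 11, 8 to 16 and 3 to 20 of the set. The median of the set ranged between -0.050 and 0.24 with SPANX KD 86 and between -0.0025 and 0.17 with SPANX KD 87, negative without EV replicate 3. Signs changed where values were not called, and all but MKL2 with SPANX KD 87 (0.29 ± 0.50, SE, main fit) were near 0. MKL2 turned to -0.097 without EV replicate 3. With the length trend removed, with or without the block, ACTB (0.049) and CNN2 (0.053) turned with SPANX KD 86. In the same fits TAGLN (0.076), TPM1 (0.037) and CDC42EP3 (-0.14) turned with SPANX KD 87. Under upper-quartile scaling ACTB between constructs was -0.038 and VASP with SPANX KD 86 -0.030, and under median-ratio scaling CNN2 with SPANX KD 86 was 0.0025. Without single libraries the ranges were -0.29 to 0.057, -0.31 to 0.030 and -0.048 to 0.092 for ACTB (SPANX KD 86, SPANX KD 87, between constructs), -0.068 to 0.12 for VASP and -0.16 to 0.11 for CNN2 with SPANX KD 86, and with SPANX KD 87 -0.58 to 0.39 for TAGLN, -0.097 to 0.92 for MKL2, -0.15 to 0.17 for CDC42EP3, -0.28 to 0.12 for TPM1 and -0.24 to 0.10 for MYL9. The causes were not tested. The replicate block lost no call in the set. No scaling moved the median of all genes by as much as 0.1. The planned count test (edgeR) was not run on the recovered reads. This was a choice, made because the deposited values are scaled and rounded. With 3 libraries a group, changes of the size that misses the threshold here are not shown to be absent.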
